A study of Mus musculus with 15 samples.

Results

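The colon transcriptome of NEMO IEC-KO mice whose RIPK1 carries alanine in place of serine 166 (Ripk1 S166A/S166A) was compared with that of NEMO IEC-KO mice with wild-type RIPK1 (Ripk1 wt/wt). The arrays were chosen by the group named at the end of each label, which gave 5 Ripk1 S166A/S166A and 5 Ripk1 wt/wt arrays, 10 of the 15 arrays of the series. Every array held total RNA of the colon of 1 mouse aged 11 weeks, and all 10 mice lacked Nemo in intestinal epithelial cells, where Villin-Cre, a recombinase driven by an epithelial promoter, deletes the loxP-flanked gene. The Ripk1 S166A allele was made with CRISPR/Cas9 in C57BL/6 oocytes and changes RIPK1 in every cell of the mouse, not in the epithelium alone. The other 5 arrays came from NEMO FL mice, which carry the loxP-flanked Nemo gene and no deletion, and their values are given as a reference level with no test. Mice are named here by the first number of their label, 1 to 5 for the Ripk1 S166A/S166A mice and 11, 12, 13, 15 and 18 for the Ripk1 wt/wt mice, called S166A/S166A and wt/wt mice below.

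RIPK1 is a kinase that joins the receptor TNFR1 when TNF binds, where ubiquitin chains and the IκB kinase complex, of which NEMO is the regulatory subunit, hold it in a state that favours survival and NF-κB activity. When NEMO is missing, RIPK1 can phosphorylate itself, serine 166 among its sites, and can start apoptosis through FADD and caspase-8 or necroptosis through RIPK3 and MLKL. In the colon, death of epithelial cells opens the barrier to bacteria, and neutrophils, monocytes and T cells then enter the mucosa.

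Each array measured 22142 probe sets on a scale read as log2, so that a difference of 1 is a doubling, and 19527 of them carry 1 gene symbol. Array medians lay between 6.27 and 6.36 over all 15 arrays, and the middle 50% of values was narrower in S166A/S166A mice 1 and 2, at 3.06 and 3.01, than in the other 13 arrays, at 3.22 to 3.40. The NEMO gene *Ikbkg* was at 5.24, 5.25, 5.30, 5.43 and 5.23 in S166A/S166A mice 1 to 5 and 5.24, 5.15, 4.85, 5.30 and 5.28 in wt/wt mice 11, 12, 13, 15 and 18, against a NEMO FL mean of 6.38. Both groups lay below every NEMO FL mouse and did not differ from each other by the test (log2 change 0.12 ± 0.12 (SE), adjusted p = 0.53, limma), while *Ripk1* itself is not among the named probe sets. Mouse 10, used here as NEMO FL after its title although its genotype label reads NEMO IEC-KO Ripk1 wt/wt, had *Ikbkg* at 6.28, and its array enters no test. The epithelial genes *Epcam*, *Cdh1* and *Muc2* were at 11.86 ± 0.05, 12.58 ± 0.07 and 12.89 ± 0.14 (SD, n = 5) in S166A/S166A mice and at 11.93 ± 0.06, 12.49 ± 0.07 and 12.74 ± 0.36 in wt/wt mice. Mean signal of the Y-linked genes *Eif2s3y*, *Kdm5d* and *Uty* was between 7.10 and 8.08 in all 5 S166A/S166A mice and was 7.58 and 7.41 in wt/wt mice 13 and 15, but 2.86 to 3.21 in wt/wt mice 11, 12 and 18, so sex is unequal between the groups. These genes passed the test below with changes of 2.87, 2.44 and 3.28, and counts from male mice only are given for the lists described where they move a count of 4 or more by 1.5 times or more.

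Of the 22142 probe sets, 2066 (9.33%) were higher and 2192 (9.9%) were lower in S166A/S166A than in wt/wt mice at an adjusted p under 0.05 (limma, Benjamini-Hochberg over all probe sets), which is called passing the test from here on. The largest differences were decreases. Among the probe sets that passed, 89 fell and 37 rose by more than 2 on the log2 scale, and beyond 4 the numbers were 8 and 1. The median over all probe sets was 0.02, and the central 95% of changes ran from −0.91 to 0.85. The ranges of the groups did not overlap in 7.05% of probe sets that lay higher and 6.6% that lay lower in S166A/S166A mice (7.35% and 6.75% of those with 1 symbol). With the 5 S166A/S166A mice and the 2 male wt/wt mice alone, 1875 probe sets were higher and 2163 lower, and of the calls made with all 10 mice 1411 and 1635 were shared. Without S166A/S166A mice 1 and 2, the arrays with the narrower spread, 1330 were higher and 1108 lower, and with mouse 10 counted as wt/wt after its genotype label 663 were higher and 771 lower. Because colon tissue was measured whole, fewer cells of a type and less RNA per cell cannot be told apart in any of these values.

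**Figure D1:**
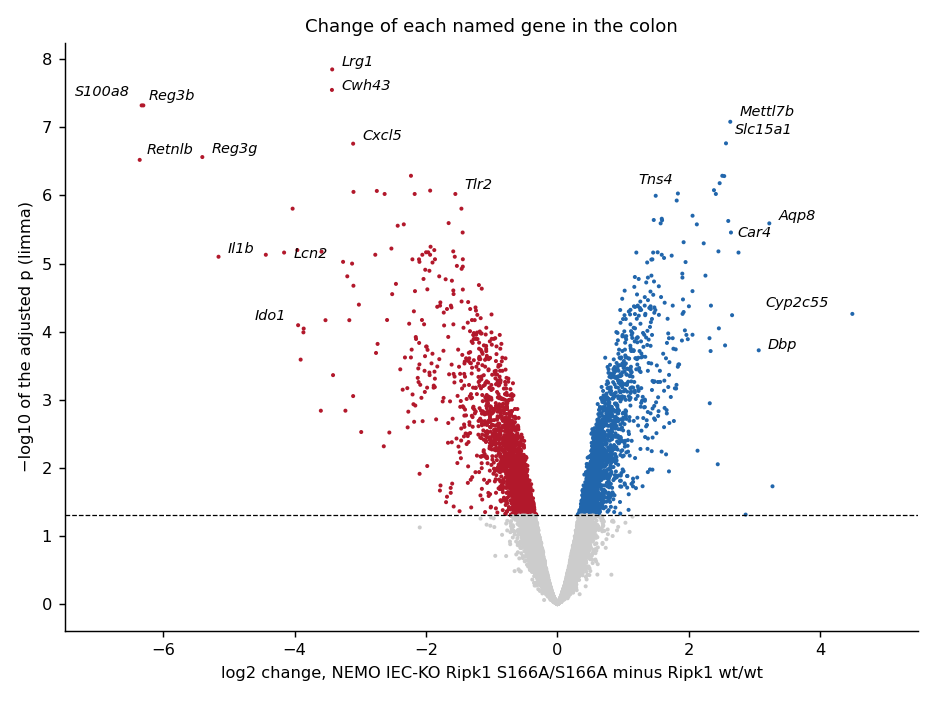
Each point is a named gene, with its log2 change between S166A/S166A and wt/wt mice (5 each) on the horizontal axis and the −log10 of its adjusted p on the vertical axis, red for genes that were lower, blue for genes that were higher, and a dashed line at the threshold of 0.05. The points farthest to the left are *Retnlb* (−6.36), *Reg3b* (−6.33) and *S100a8* (−6.30), and the point farthest to the right is *Cyp2c55* (4.49).

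Antimicrobial products of the epithelium were among the genes with the largest decreases. *Reg3b*, a C-type lectin secreted against bacteria, was at 4.85, 4.77, 4.46, 4.38 and 4.73 in the S166A/S166A mice and at 9.55, 11.87, 10.79, 12.05 and 10.58 in the wt/wt mice. Every S166A/S166A mouse lay far below every wt/wt mouse and near the NEMO FL mean of 4.97. The change of −6.33 ± 0.35 (SE) is an 80.4-fold difference (adjusted p = 4.8e-08). *Retnlb*, the goblet cell product RELMβ, was at 3.76, 3.15, 5.55, 3.27 and 2.83 against 9.08, 10.03, 9.85, 10.64 and 10.74, a change of −6.36 ± 0.42 (adjusted p = 3.0e-07). Mouse 3 had the highest *Retnlb* value of the S166A/S166A mice and still lay below every wt/wt mouse. In a list of antimicrobial and alarm genes of the epithelium 32 were measured, of which 14 fell and 1 rose, where 10.2% and 9.64% of all named probe sets fell and rose. The others that fell include *Reg3g* (−5.40), the secreted phospholipase *Pla2g2a* (−3.53), *Duoxa2* (−2.20), which brings the hydrogen peroxide producing oxidase DUOX2 to the cell surface, and the epithelial oxidase *Nox1* (−1.84). The 1 gene that rose was the transglutaminase *Tgm3* (1.73). The list's median was −0.25, and 17 members did not pass, *Reg3a* (−0.01) and *Defb1* (−0.07) among them.

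Neutrophil genes were low in every S166A/S166A mouse. *S100a8*, which encodes a subunit of calprotectin, was at 3.10, 3.09, 3.13, 2.67 and 2.78 in these mice and at 7.89, 8.64, 9.62, 9.65 and 10.48 in wt/wt mice, with a NEMO FL mean of 2.82. The decrease of 6.30 on the log2 scale is 78.9-fold (SE 0.35, adjusted p = 4.8e-08). Its partner *S100a9* fell by 4.44, and the granulocyte receptors *Csf3r* and *Cxcr2* fell by 2.25 and 1.46. Of 28 measured neutrophil genes 19 were lower and none was higher, with a median of −2.01. The 9 that did not pass include the granule genes *Mpo* (0.09), *Elane* (0.14) and *Prtn3* (0.14), which are transcribed in precursors in the bone marrow and not in mature neutrophils. The median of the list, as a difference from the NEMO FL mean, was 0.31, 0.30, 0.15, 0.01 and −0.05 in S166A/S166A mice 1 to 5 and 0.73, 1.71, 2.12, 2.31 and 3.72 in wt/wt mice 11, 12, 13, 15 and 18. The 2 groups did not overlap, and the wt/wt mice spanned a far wider range than the S166A/S166A mice.

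Genes for signals that attract and activate neutrophils were lower too. *Il1b*, an inflammatory cytokine made mainly by myeloid cells, was at 3.97, 3.89, 4.97, 4.87 and 4.34 in S166A/S166A and at 7.69, 8.74, 9.72, 10.24 and 11.44 in wt/wt mice, a change of −5.16 ± 0.50 (adjusted p = 7.9e-06). *Tnf*, the ligand of TNFR1, was at 5.27, 4.28, 5.37, 4.84 and 4.47 against 5.88, 6.43, 6.63, 7.59 and 8.50, a change of −2.16 ± 0.38 (adjusted p = 0.0012). The groups did not overlap for either gene, and the lowest wt/wt mouse was mouse 11 in both. *Cxcl5*, a ligand of the neutrophil receptor CXCR2, varied little within groups and changed by −3.11 ± 0.20 (adjusted p = 1.7e-07). *Cxcl2* and *Cxcl1*, which encode further CXCR2 ligands, changed by −3.23 ± 0.59 and −1.17 ± 0.24. For *Cxcl2* the wt/wt values of 6.02, 7.16, 7.44, 9.15 and 10.51 were among the most variable of all genes that passed, against 5.06, 4.84, 4.82, 4.39 and 5.03 in the S166A/S166A mice. Of 14 genes for CXCR2 ligands, colony-stimulating factors and their receptors, 10 were lower and none was higher (median −0.97), and of 15 genes of the IL-1 and IL-36 family 9 were lower and 1 was higher.

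*Cxcl1* and *Cxcl2* lie close together on chromosome 5, and their promoters are shown because the κB motif, the element that NF-κB binds, stands in a pair just before each start site. The stretches are from RefSeq on GRCm38.p6, plus strand, at chr5:90891145-90891264 and chr5:90903789-90903908, running from base −100 to 20 and from −110 to 10 of the annotated start, with matches to GGG, any 2 bases and TTTCC on either strand in capitals.
Cxcl1: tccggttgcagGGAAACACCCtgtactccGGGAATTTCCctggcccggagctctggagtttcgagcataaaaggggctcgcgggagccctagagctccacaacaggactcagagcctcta
Cxcl2: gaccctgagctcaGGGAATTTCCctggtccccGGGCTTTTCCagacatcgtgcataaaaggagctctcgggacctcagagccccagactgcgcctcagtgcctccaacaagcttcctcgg
The matches begin at −89 and −71 in *Cxcl1* and at −97 and −78 in *Cxcl2*. This motif was found in the promoter window, 250 bases before to 50 after the start, of 285 of 15683 measured genes with a window (1.82%). It stood in 4 of 10 genes of the CXCR2 ligand and colony-stimulating factor list and in 36 of the 1575 genes (2.29%) that were lower in all. In that list 3 of the 4 genes with the motif were lower, and 4 of the 6 without it. Among NF-κB subunits and feedback genes 1 of 4 with the motif was lower, and 6 of 11 without it. A match is a description of letters and not a measure of binding. The motifs named here were chosen with the expression values known.

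Genes of monocytes and macrophages were mostly lower. Of 34 measured, 21 were lower (61.8%) and 2 were higher (median −0.88). The 2 that rose are 5.88% of the list, below the 9.64% of all named probe sets that rose. The largest decreases were in *Fcgr4*, an activating Fc receptor, at 3.06 to 3.95 in S166A/S166A and 5.52 to 7.42 in wt/wt mice (change −3.12 ± 0.31), and in *Chil3* (−2.39) and *Ly6c2* (−2.02), markers of inflammatory monocytes. The pan-macrophage and resident markers *Adgre1*, *Cx3cr1* and *Mrc1* had changes of −0.16, −0.11 and −0.06 and did not pass. *Cd163* and *Folr2*, scavenger and folate receptors of resident tissue macrophages, rose by 1.35 and 0.96 (adjusted p = 1.2e-04 and 0.019), and in male mice *Folr2* did not pass (adjusted p = 0.076). *Cd163* was at 6.62, 6.39, 6.59, 7.13 and 6.80 in S166A/S166A mice, 5.15, 5.63, 5.71, 5.44 and 4.84 in wt/wt mice and a mean of 6.88 in NEMO FL mice. Among 34 genes of T and NK cells 13 fell and none rose, led by the killer cell protease *Gzma* (−2.12), *Icos* (−1.42), *Cd3e* (−1.33) and *Ctla4* (−1.27). This count was 8 without S166A/S166A mouse 5 and 7 without S166A/S166A mice 1 and 2. *Cd8a* changed by −0.27 and did not pass.

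Among the components of the pathway that the mutation acts in, 9 of 24 genes of apoptosis and necroptosis were lower and 1 was higher (median −0.28). *Ripk3*, the kinase that RIPK1 engages in necroptosis, was at 7.52, 7.12, 8.56, 7.38 and 7.86 in S166A/S166A mice and at 9.55, 9.53, 9.24, 9.61 and 9.64 in wt/wt mice, with a NEMO FL mean of 7.17 (change −1.83 ± 0.21, adjusted p = 4.3e-05). *Mlkl*, whose product RIPK3 phosphorylates and which then breaks the plasma membrane, was at 8.38, 8.03, 9.40, 8.06 and 8.85 against 9.61, 9.53, 9.75, 9.54 and 9.64 (change −1.07 ± 0.22, adjusted p = 0.0029). In both genes mouse 3 was the highest S166A/S166A mouse, the wt/wt mice lay close together, and the groups did not overlap. *Zbp1*, a nucleic acid sensor that also binds RIPK3, changed by −1.14 and the death ligand *Tnfsf10* by −0.91. The *Tnfsf10* call was lost without any 1 of 7 single mice (adjusted p up to 0.11, without wt/wt mouse 15). Smaller decreases passed for *Bak1* (−0.76), *Casp6* (−0.66), *Pmaip1* (−0.57), *Bcl2l11* (−0.49) and *Casp8* (−0.45). For *Casp8* the adjusted p of 0.042 rose to 0.11 without S166A/S166A mouse 2. The survival gene *Mcl1* rose by 0.37 (adjusted p = 0.036, and 0.089 without S166A/S166A mouse 5). *Fadd* (−0.04), the adaptor between RIPK1 and caspase-8, and *Cflar* (0.13), the inhibitor of caspase-8, did not pass. The count of lower members was 6 in male mice, 5 in a fit with sex as a term and 5 without S166A/S166A mice 1 and 2.

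Of 24 measured genes of the complex at TNFR1, 2 were lower and 1 was higher (12.5% in all, against 19.8% of all named probe sets), with a median of −0.02. The receptor *Tnfrsf1a* fell by 0.79 (adjusted p = 2.5e-04), the deubiquitinase *Cyld* fell by 0.50, and *Tnip1*, a partner of A20, rose by 0.60. *Tnfrsf1a* was at 9.66 to 9.82 in the S166A/S166A mice and at 10.33 to 10.68 in the wt/wt mice. The A20 gene *Tnfaip3* (−0.60, adjusted p = 0.067), *Traf2* (−0.25), *Birc2* (−0.25) and *Birc3* (0.03) did not pass. The numbers were 4 lower without wt/wt mouse 13, and 1 lower and 3 higher in male mice. Of 17 NF-κB subunits and feedback genes 7 were lower, *Tnfaip2* (−1.61) and *Icam1* (−0.68) among them, but not *Nfkbia* (−0.35) or *Nfkb2* (−0.26). That count was 4 in male mice, 4 without S166A/S166A mouse 4 and 4 without S166A/S166A mice 1 and 2. Of 21 genes of inflammasomes and pyroptosis 4 fell (19.0%) and 3 rose (14.3%). Among all named probe sets 10.2% fell and 9.64% rose, and both counts of this list are small. The sensor gene *Nlrp3* (−1.60) and the pore-forming *Gsdmd* (−0.39) fell beside *Il1b*, while the epithelial gasdermins *Gsdmc3* (1.04) and *Gsdmc2* (0.61) and the sensor *Nlrp1b* (0.75) rose. The number that rose was 6 in male mice and 6 without wt/wt mouse 18, and 2 fell without any 1 of S166A/S166A mice 2 and 4 and wt/wt mice 12, 13 and 15, and 1 without S166A/S166A mice 1 and 2. *Nlrp3* did not pass with sex as a term (adjusted p = 0.17).

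Some interferon-responsive genes were far lower in S166A/S166A mice and others did not pass. Of 37 measured, 21 were lower and none was higher (median −0.83). The decreases were led by the tryptophan-degrading enzyme *Ido1* (−3.95) and by *Nos2* (−3.17), the inducible nitric oxide synthase, followed by the large GTPases that act on intracellular microbes, *Tgtp2* (−2.02), *Iigp1* (−1.95), *Igtp* (−1.87), *Gbp2* (−1.61) and *Gbp3* (−1.40). *Cxcl9* and *Cxcl10*, chemokines induced by interferon, fell by 3.59 and 2.15, and *Ifng* fell by 1.17. Antiviral members were found on both sides of the threshold. *Ifit2* (−1.29), the ubiquitin-like *Isg15* (−0.85), *Xaf1* (−0.53) and *Dhx58* (−0.46) fell, and *Mx1* (−0.06), *Rsad2* (−0.11), *Ifit1* (−0.59), *Ddx58* (−0.04) and *Ifih1* (0.12) did not pass. The count of 21 was 28 without S166A/S166A mouse 3 and 14 without S166A/S166A mice 1 and 2. Of 16 genes of MHC class I and the immunoproteasome 12 were lower, *Psmb8* (−1.40), *Tap1* (−1.11) and *H2-T22* (−1.08) among them, 8 in male mice and 7 without S166A/S166A mice 1 and 2. Of 9 MHC class II genes only *H2-DMa* (−0.83) was lower, with an adjusted p of 0.042, and of 0.10 without wt/wt mouse 13. The class II chain *H2-Aa* was at 11.57, 10.33, 11.64, 11.24 and 11.03 in S166A/S166A mice and 10.83, 11.39, 11.48, 11.50 and 11.06 in wt/wt mice, with a NEMO FL mean of 9.32.

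The interferon-stimulated response element (ISRE) is shown in the promoters of 3 GTPase genes that fell and of *Ifit1*, which did not pass, because the element stands in genes that passed and in 1 that did not. Each line gives 80 bases of the sense strand from RefSeq on GRCm38.p6, with matches to GAAA, any 2 bases and GAAA on either strand in capitals. The stretches are chr11:49064223-49064302 (minus strand), chr11:58199496-58199575, chr3:142620583-142620662 and chr19:34640774-34640853 (plus strand).
Tgtp2: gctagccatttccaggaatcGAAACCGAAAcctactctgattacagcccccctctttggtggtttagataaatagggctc
Igtp: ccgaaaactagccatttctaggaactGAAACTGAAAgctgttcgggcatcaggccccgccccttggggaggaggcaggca
Gbp2: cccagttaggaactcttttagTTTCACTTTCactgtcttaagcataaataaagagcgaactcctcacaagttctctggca
Ifit1: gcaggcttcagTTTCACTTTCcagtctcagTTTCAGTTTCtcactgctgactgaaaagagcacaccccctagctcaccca
The matches begin at −70, −34 and −59 in *Tgtp2*, *Igtp* and *Gbp2* and at −104 and −85 in *Ifit1*. Of 26 genes of the interferon list with a promoter window 17 held the element (65.4%), against 618 of 15683 measured genes (3.94%). Among these 17 genes 9 passed the test, and among the 9 without it 4 did. The element was found in 101 of 1575 genes that were lower (6.41%) and in 34 of 1501 that were higher (2.27%). *Tgtp2* and *Igtp* belong to a family of close copies, and how far their probe sets respond to each other's RNA was not tested.

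**Figure D2:**
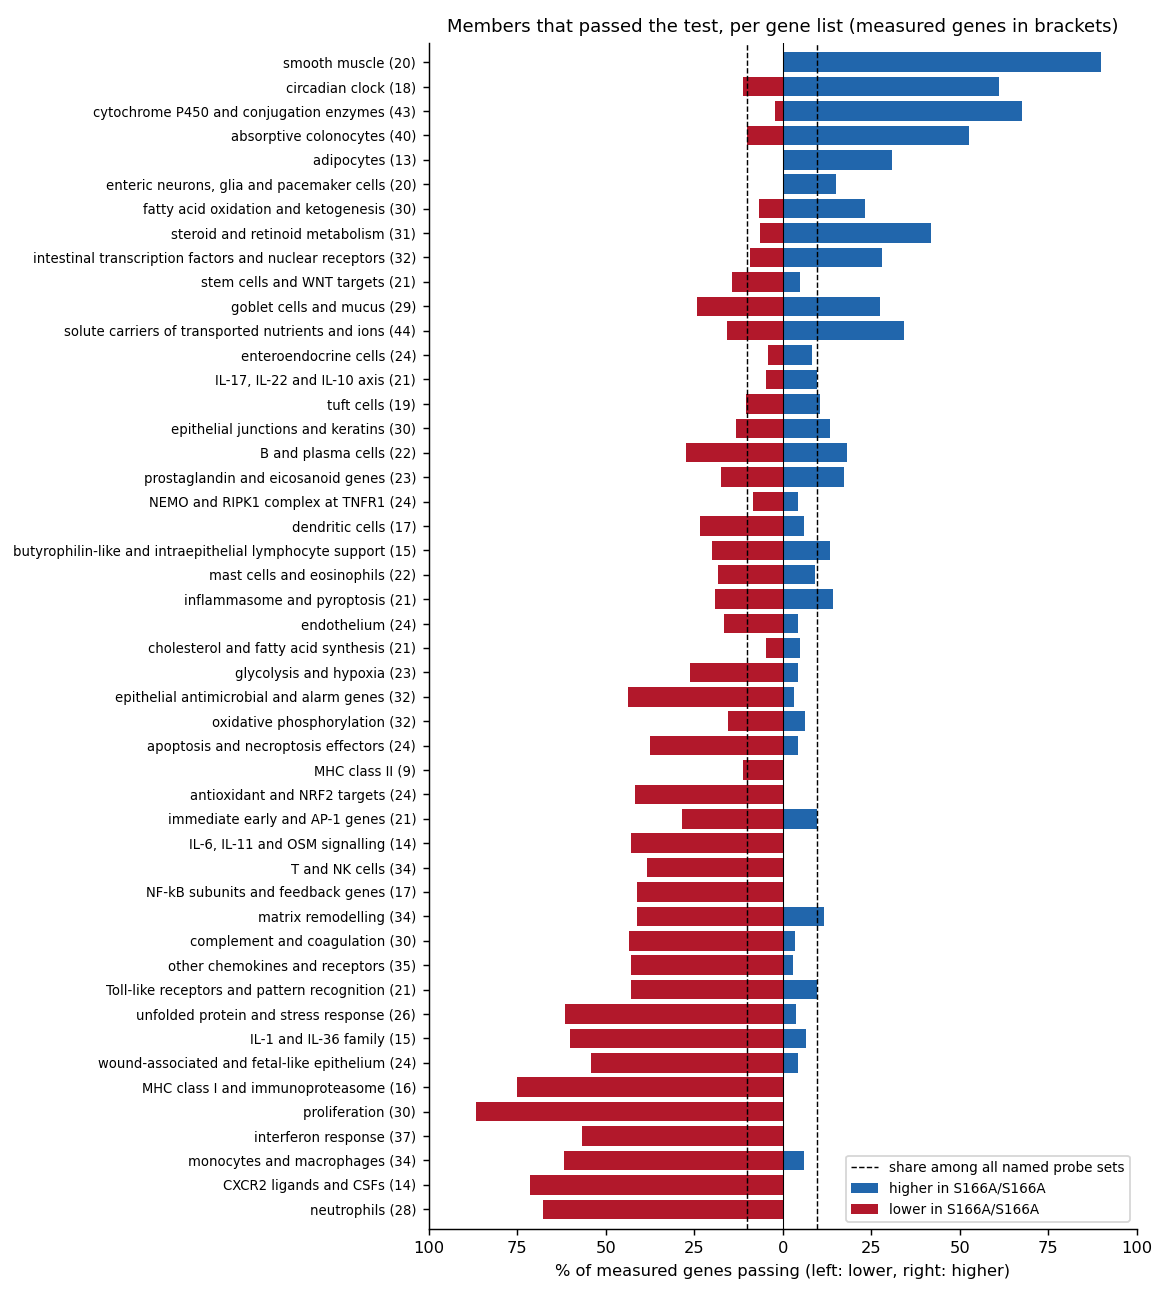
For each gene list, bars show the percentage of its measured genes (number in brackets) that were higher (blue, to the right) or lower (red, to the left) in S166A/S166A mice, and dashed lines show the share among all named probe sets, 9.64% higher and 10.2% lower. Lists are ordered by their median change, from smooth muscle (1.33) at the top to neutrophils (−2.01) at the bottom.

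Genes of cell division were lower in S166A/S166A mice by modest amounts that nearly all passed. Of 30 measured, 26 were lower and none was higher (median −0.75). *Rrm2*, which encodes the regulated subunit of ribonucleotide reductase, was at 7.05, 7.01, 7.59, 7.19 and 7.46 in S166A/S166A mice and at 9.04, 8.13, 8.55, 8.64 and 8.75 in wt/wt mice (change −1.36 ± 0.17, adjusted p = 7.4e-05), and the groups did not overlap. The mitotic kinase *Cdk1* fell by 1.20 and the replicative helicase subunit *Mcm5* by 0.89. The members that did not pass were *Ccnb2* (−0.50), *Tpx2* (−0.45), *Tk1* (−0.40) and *Mki67* (−0.17). Only 11 members were lower when S166A/S166A mice 1 and 2 were left out, and 17 in male mice, while the median stayed at −0.59 and −0.78. Of 21 stem cell genes and WNT targets, *Aqp4* (−1.38), *Cd44* (−0.77) and *Cdca7* (−0.40) fell, the feedback inhibitor *Axin2* rose (0.40, a call lost without any 1 of 6 mice), and the stem cell receptor *Lgr5* (0.19) did not pass. In all 19.0% of this list passed, near the 19.8% of all named probe sets. The list held 1 gene that fell in male mice and 1 without S166A/S166A mouse 2.

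Chaperones of the endoplasmic reticulum and genes of amino acid stress were lower as well. Of 26 genes of the unfolded protein and stress response 16 were lower and 1 was higher (median −0.56), and 10 were lower in male mice. *Asns*, the asparagine synthetase that ATF4 induces, was at 8.47, 8.34, 9.12, 8.67 and 8.61 against 9.95, 9.70, 9.85, 10.02 and 9.93 (change −1.24 ± 0.15, adjusted p = 4.4e-05), and *Creld2*, *Pdia6* and *Hspa5* fell by 1.17, 0.94 and 0.58. The exception was *Ern2* (0.64), the stress sensor of mucus-secreting epithelium, and the sensors *Ern1* (0.11) and *Atf6* (0.19) did not pass. Matrix-degrading enzymes of injured mucosa fell far more. *Mmp10*, *Mmp13*, *Mmp3* and *Mmp12* fell by 3.96, 3.26, 3.20 and 3.10, and *Mmp10* was at 3.21 to 3.99 in S166A/S166A and 6.49 to 9.01 in wt/wt mice. Of 34 genes of matrix remodelling 14 fell and 4 rose, 1 in male mice, and the matrix protein gene *Postn* (1.06) was among those that did not pass in male mice (adjusted p = 0.081). Of 24 genes of wound-associated epithelium 13 were lower and 1 was higher, and *Plaur*, the urokinase receptor, fell by 2.51.

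Some genes with smaller changes separated the groups more sharply than those with the largest. *Lrg1*, a secreted glycoprotein of inflamed tissue, was at 6.28, 6.20, 6.37, 5.90 and 5.57 in S166A/S166A mice and at 9.45, 9.74, 9.25, 9.63 and 9.39 in wt/wt mice (change −3.43 ± 0.16, adjusted p = 1.4e-08). *Cwh43*, a gene of lipid anchor remodelling, was at 5.39, 5.12, 5.61, 4.61 and 5.00 against 8.38, 8.85, 8.61, 8.72 and 8.34 (change −3.43 ± 0.17, adjusted p = 2.8e-08). Both groups were tight in both genes and lay far apart. *Tnfrsf23*, a decoy receptor for the death ligand TRAIL in mouse, changed by −2.23 ± 0.15 and the bacterial lipoprotein receptor *Tlr2* by −1.55 ± 0.12 (adjusted p = 5.1e-07 and 9.5e-07). The 12 largest decreases with groups that did not overlap were those of *Retnlb*, *Reg3b*, *S100a8*, *Reg3g*, *Il1b*, *S100a9*, the iron-scavenging protein gene *Lcn2* (−4.16), haptoglobin (*Hp*, −4.03), *Mmp10*, *Ido1*, and the granulocyte genes *Retnlg* (−3.91) and *Stfa2l1* (−3.87). The 12 largest increases were those of *Cyp2c55*, *Aqp8*, *Dbp*, *Cyp2d12*, *Sycn* (2.66), which encodes syncollin, the brush border protease meprin (*Mep1a*, 2.65), *Mettl7b*, *Car4*, *Slc15a1*, the pentraxin *Mptx1* (2.56), *Abcb1a* and *Slc26a3*, most of which are described below. *Tns4*, a focal adhesion protein gene, rose by 1.84 ± 0.14 and had one of the 8 smallest adjusted p-values among increases (9.4e-07).

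**Figure D3:**
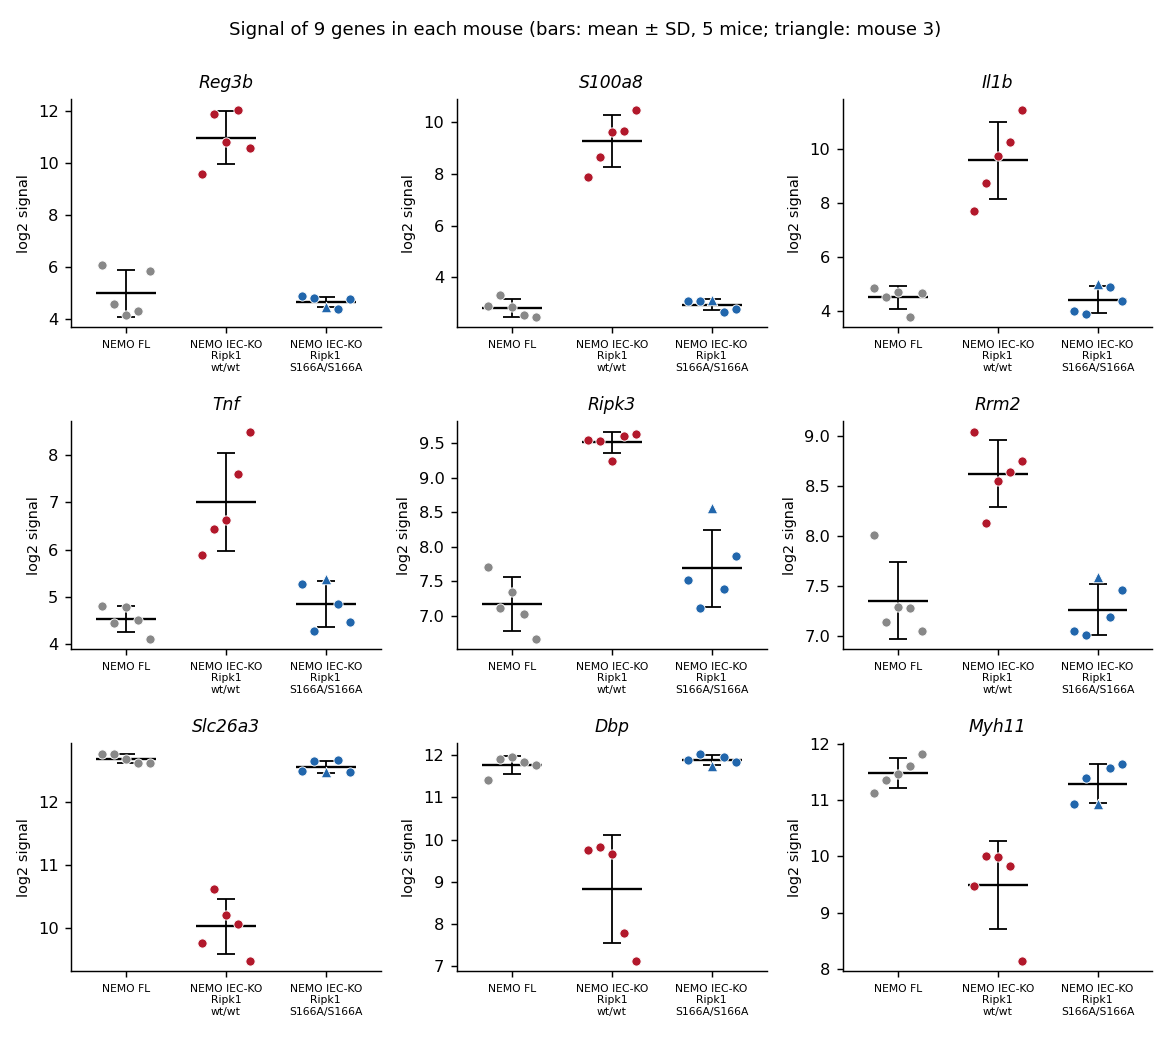
The log2 signal of 9 genes is plotted for each mouse of the 3 genotypes (5 mice each), with the mean and SD as bars and S166A/S166A mouse 3 as a triangle. *Reg3b*, *S100a8*, *Il1b*, *Tnf*, *Ripk3* and *Rrm2* are higher in every wt/wt mouse than in any S166A/S166A mouse, and *Slc26a3*, *Dbp* and *Myh11* are lower.

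Genes of the absorptive colonocyte were higher in S166A/S166A mice. *Slc26a3*, the chloride and bicarbonate exchanger of the colon surface, was at 12.49, 12.65, 12.47, 12.66 and 12.47 in S166A/S166A mice and at 9.77, 10.62, 10.22, 10.08 and 9.49 in wt/wt mice, with a NEMO FL mean of 12.68. The change of 2.51 ± 0.18 (adjusted p = 5.1e-07) is 5.71-fold. *Aqp8*, a water channel, rose by 3.23, the membrane carbonic anhydrase *Car4* by 2.60, the sodium and proton exchanger *Slc9a3* by 2.46, and the phosphate transporter *Slc20a1* by 2.47. In the whole list of 40 absorptive colonocyte genes 21 rose (52.5%) and 4 fell (10.0%), with a median of 0.58. Among all named probe sets 9.64% rose and 10.2% fell, so the share of the list that fell is near that of all. Those that fell were *Clca4b* (−2.64), *Slc51b* (−1.47) and *Slc51a* (−0.40), the subunits of the basolateral bile acid exporter, and *Guca2b* (−0.75), which encodes uroguanylin, while the guanylin gene *Guca2a* rose by 1.22. *Krt20* (−0.07) did not pass. The *Slc51a* call was lost in male mice (adjusted p = 0.069) and without S166A/S166A mice 1 and 2 (0.056). Among solute carriers the peptide transporter *Slc15a1* was at 11.35, 11.41, 11.36, 11.63 and 11.39 against 9.05, 8.96, 8.72, 9.26 and 8.31 (change 2.57 ± 0.16, adjusted p = 1.7e-07), and the manganese exporter *Slc30a10* and the fructose transporter *Slc2a5* rose by 2.32 and 1.94. The cystine transporter *Slc7a11* fell by 1.95 and the lactate exporter *Slc16a3* by 1.23. Over 44 solute carriers 15 were higher and 7 lower, and 4 were lower without S166A/S166A mouse 5 and 4 without wt/wt mouse 15.

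Enzymes that modify drugs, bile acids and steroids formed the list with the most genes that rose. Of 43 cytochrome P450 and conjugation enzymes 29 were higher and 1 was lower (median 0.82). *Cyp2c55*, a P450 of the colon, showed the largest increase of any gene. Its values were 8.67, 10.04, 6.06, 9.99 and 8.86 in S166A/S166A mice 1 to 5 and 4.25, 4.46, 3.86, 4.54 and 4.05 in wt/wt mice, a change of 4.49 ± 0.54 (adjusted p = 5.5e-05). Mouse 3, at 6.06, stood apart, below the other 4 S166A/S166A mice and above every wt/wt mouse. *Cyp2d12* (2.76), *Cyp2s1* (2.06) and the sulfotransferase *Sult1a1* (1.95) followed, and the exception was the carboxylesterase *Ces1g* (−0.84). The drug efflux pumps *Abcb1a* and *Abcb1b*, close copies of each other, rose by 2.54 and 2.42. *Mettl7b*, a methyltransferase, was at 6.96 to 7.78 in S166A/S166A and 4.43 to 4.97 in wt/wt mice and had the smallest adjusted p of the genes that rose (8.3e-08). In steroid and retinoid metabolism 13 of 31 genes were higher, the steroid dehydrogenase *Hsd3b3* (2.39) and the retinal dehydrogenase *Aldh1a1* (1.86) among them, while the retinal dehydrogenase *Aldh1a3* fell by 1.44. Of 32 genes listed under transcription factors and nuclear receptors 9 were higher. Among them were the mineralocorticoid receptor *Nr3c2* (1.53), the vitamin D receptor *Vdr* (1.17) and the epithelial factor *Hnf4a* (0.73). *Isx* (−1.65), *Prdm1* (−1.63) and *Trim40* (−1.34), which is neither a transcription factor nor a nuclear receptor, were the 3 that fell. These 3 are 9.4% of the list, near the 10.2% of all named probe sets that fell.

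Clock genes and their targets differed by large amounts, most of them upwards. The circadian clock is a loop in which the activators CLOCK and BMAL1 (the product of *Arntl*) drive the *Per*, *Cry* and *Nr1d* genes, whose products repress the activators, and output genes such as *Dbp*. *Dbp* was at 11.89, 12.04, 11.74, 11.96 and 11.84 in S166A/S166A mice and at 9.76, 9.82, 9.67, 7.78 and 7.12 in wt/wt mice, with a NEMO FL mean of 11.78 (change 3.07 ± 0.43, adjusted p = 1.9e-04). Wt/wt mice 15 and 18 lay well below the other 3 wt/wt mice, and the S166A/S166A mice lay close together. *Nr1d1* was at 11.52, 10.90, 10.90, 11.17 and 10.77 against 9.81, 9.46, 9.40, 8.47 and 8.29 (change 1.97 ± 0.26), and *Ciart*, *Per3*, *Per2* and *Cry2* rose by 2.06, 1.77, 1.56 and 1.42. *Arntl* fell by 0.61 (adjusted p = 0.036, and 0.090 without wt/wt mouse 15) and the repressor *Nfil3* by 1.48. *Clock* (−0.08), *Npas2* (−0.25), *Cry1* (−0.24), *Rora* (0.45) and *Bhlhe40* (0.15) did not pass. In all 11 of 18 clock genes were higher and 2 lower, and the counts were 11 and 2 in male mice too. The hour at which each mouse was killed is not given in the sources used here, and its part in these values was not tested.

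*Ciart*, a repressor of CLOCK and BMAL1, is shown because its promoter holds the element these activators bind, the E-box, 3 times. The stretch is chr3:95882239-95882358 on the minus strand of GRCm38.p6 (RefSeq), from −130 to −11 of the start, with CACGTG in capitals.
Ciart: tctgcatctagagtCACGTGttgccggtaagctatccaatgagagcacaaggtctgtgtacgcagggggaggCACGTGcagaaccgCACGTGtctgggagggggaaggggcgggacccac
The matches begin at −116, −58 and −44. CACGTG reads the same on both strands and was found in the window of 5 of 16 clock genes, *Per1*, *Cry1*, *Tef*, *Bhlhe41* and *Ciart*, and in 1451 of 15683 measured genes (9.25%). Of these 5, all but *Cry1* were higher in S166A/S166A mice, and their median change was 0.82. Of the 11 clock genes without CACGTG in the window 6 were higher and 2 lower, with a median of 1.13. *Dbp*, *Nr1d1* and *Per3* are among these 11. Among all genes that rose 9.53% held it and among those that fell 9.84%, both close to the share of all genes.

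The contractile genes of smooth muscle were higher in S166A/S166A mice. *Myh11*, the smooth muscle myosin heavy chain, was at 10.94, 11.40, 10.94, 11.58 and 11.65 in S166A/S166A mice and at 9.47, 10.01, 9.98, 9.82 and 8.14 in wt/wt mice, with a NEMO FL mean of 11.48 (change 1.82 ± 0.29, adjusted p = 6.1e-04). Desmin (*Des*) was at 10.36, 10.58, 10.11, 10.94 and 10.82 against 9.25, 9.27, 9.54, 9.47 and 7.00 (change 1.66 ± 0.38, adjusted p = 0.0063). Wt/wt mouse 18 was the lowest mouse in both genes, by more than 1 unit, and the groups did not overlap. Of 20 measured genes 18 were higher and none was lower (median 1.33), and *Cald1* (0.69) and *Ppp1r12b* (0.22) did not pass. The count was 16 in male mice and 9 in a fit with sex as a term, with a median of 0.95 in both. Of 20 genes of enteric neurons, glia and pacemaker cells 3 rose and none fell (15% in all, against 19.8% of all named probe sets). *Ano1* (1.43) and *Kit* (0.82), which mark the pacemaker cells, and the neuronal gene *Stmn2* (0.98) were those that rose. *Kit* was also listed for mast cells. Of 13 adipocyte genes 4 rose, the lipid droplet gene *Plin4* (1.13) and the hormone gene *Retn* (0.83) among them, and 2 rose in male mice. How much muscle or fat went into each sample is not given, and its part in these values was not tested.

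Some lists held genes that moved against each other. In goblet cells 8 of 29 genes rose and 7 fell. *Clca1* (1.49), *Nxpe4* (1.44) and the mucus protein gene *Fcgbp* (0.87) were among those that rose, and *Retnlb*, the glycosyltransferase *Galnt3* (−1.56) and *Spink4* (−1.05) among those that fell. The main mucin gene *Muc2* changed by 0.14 and did not pass. *Galnt3* was at 7.89, 7.85, 8.36, 8.04 and 8.56 in S166A/S166A mice and at 9.67, 9.63, 9.51, 9.76 and 9.92 in wt/wt mice. Of 22 genes of B and plasma cells 6 fell and 4 rose. The plasma cell genes *Jchain*, *Mzb1* (−2.10), *Derl3* (−1.03) and *Prdm1* fell, while the mature B cell genes *Blk* (0.89), *Bank1* (0.89), *Pax5* (0.67) and *Fcer2a* (0.47) rose. Of the whole list 1 gene rose without wt/wt mouse 13 or wt/wt mouse 15, 1 without S166A/S166A mice 1 and 2, and 2 without any 1 of S166A/S166A mice 1, 3 and 4 and wt/wt mouse 11. *Jchain*, which encodes the joining chain of secreted IgA and IgM, was at 10.32, 8.73, 10.67, 10.08 and 9.63 in S166A/S166A and 11.47, 11.94, 11.96, 12.11 and 11.94 in wt/wt mice. Of 30 junction and keratin genes 4 fell, 2 without S166A/S166A mouse 2, and 4 rose. That is 13.3% each way, not far from the 10.2% and 9.64% of all named probe sets that fell and rose. *Cldn4* fell by 1.58 and *Cldn1* rose by 1.55, each with groups that did not overlap. Of 24 endothelial genes 4 fell and 1 rose (20.8% in all, near the 19.8% of all named probe sets). Those that fell were the leukocyte adhesion genes *Selp* (−2.22), *Madcam1* (−1.20), *Vcam1* (−0.89) and *Icam1*, and the 1 that rose was the angiopoietin receptor *Tek* (0.72), while *Pecam1* (−0.09) and *Cdh5* (−0.44), found in all endothelium, did not pass. *Vcam1* did not pass with sex as a term (adjusted p = 0.051) or without S166A/S166A mice 1 and 2 (0.098).

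Other genes of inflammation fell by intermediate amounts. *Ccl5*, a chemokine of T cells and monocytes, was at 6.85, 5.23, 6.53, 6.37 and 5.80 in S166A/S166A mice and at 6.77, 8.27, 8.74, 8.64 and 9.31 in wt/wt mice (change −2.19 ± 0.39, adjusted p = 0.0012). Of 35 other chemokines and receptors 15 were lower, the monocyte receptors *Ccr1* (−1.83) and *Ccr2* (−1.35) among them, and 1 was higher, *Ccl28* (0.38), an epithelial chemokine for plasma cells. In IL-6, IL-11 and OSM signalling 6 of 14 genes fell, with *Il6* at −1.78, *Osm* at −1.62, *Il11* at −1.36 and their feedback inhibitor *Socs3* at −0.83. Among Toll-like receptors and pattern recognition genes 9 of 21 fell, led by *Clec4e* (−2.27), *Trem1* (−2.05) and the lipopolysaccharide co-receptor *Cd14* (−1.78), while the flagellin receptor *Tlr5* rose by 0.94. Of 30 complement and coagulation genes 13 fell, the protease inhibitor *Serpina3n* (−2.77) and the component *C2* (−1.35) among them, and 8 did so without S166A/S166A mouse 2. Of 24 antioxidant genes 10 fell, with heme oxygenase (*Hmox1*) at −1.31 and the epithelial glutathione peroxidase *Gpx2* at −1.23, and 5 did so without S166A/S166A mice 1 and 2. Of 23 prostaglandin and eicosanoid genes 4 fell, 2 without S166A/S166A mice 1 and 2, and 4 rose. Those that fell include *Ptgs2* (−1.79), which makes the precursor of prostaglandins, and the lipoxygenase *Alox12* (−1.17), and those that rose include *Hpgd* (0.96), which degrades prostaglandins, and the receptor *Ptger3* (0.78). Among immediate early and AP-1 genes 6 of 21 fell and 2 rose, with *Dusp6* at −1.15 and *Egr1* at −1.04 among those that fell. The count that fell was 2 in male mice, 3 without S166A/S166A mouse 2 and 3 without S166A/S166A mouse 3.

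In other lists the share that passed with all 10 mice was below or near the 19.8% of all named probe sets. Of 24 enteroendocrine genes 3 passed, with *Tac1* falling by 2.06, of 21 genes of the IL-17, IL-22 and IL-10 axis 3 did, and of 21 genes of cholesterol and fatty acid synthesis 2 did, *Fdps* (−0.93) and *Acly* (0.37). In that last list 8 genes were lower without S166A/S166A mouse 3. Of 19 tuft cell genes 4 passed, with the prostaglandin D synthase *Hpgds* at 1.66. *Il17a* (0.06, adjusted p = 0.83) and *Il22* (−0.10, adjusted p = 0.76) did not pass. For oxidative phosphorylation 5 of 32 genes were lower, 12 in male mice, 11 without wt/wt mouse 18 and 9 without S166A/S166A mouse 3, but 3 without S166A/S166A mouse 4 and 3 without wt/wt mouse 13 or 15. Lists for small intestine, stratified squamous epithelium and red blood cells, kept as checks on neighbouring tissue, had no member that passed, and the pancreas list had 1.

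**Figure D4:**
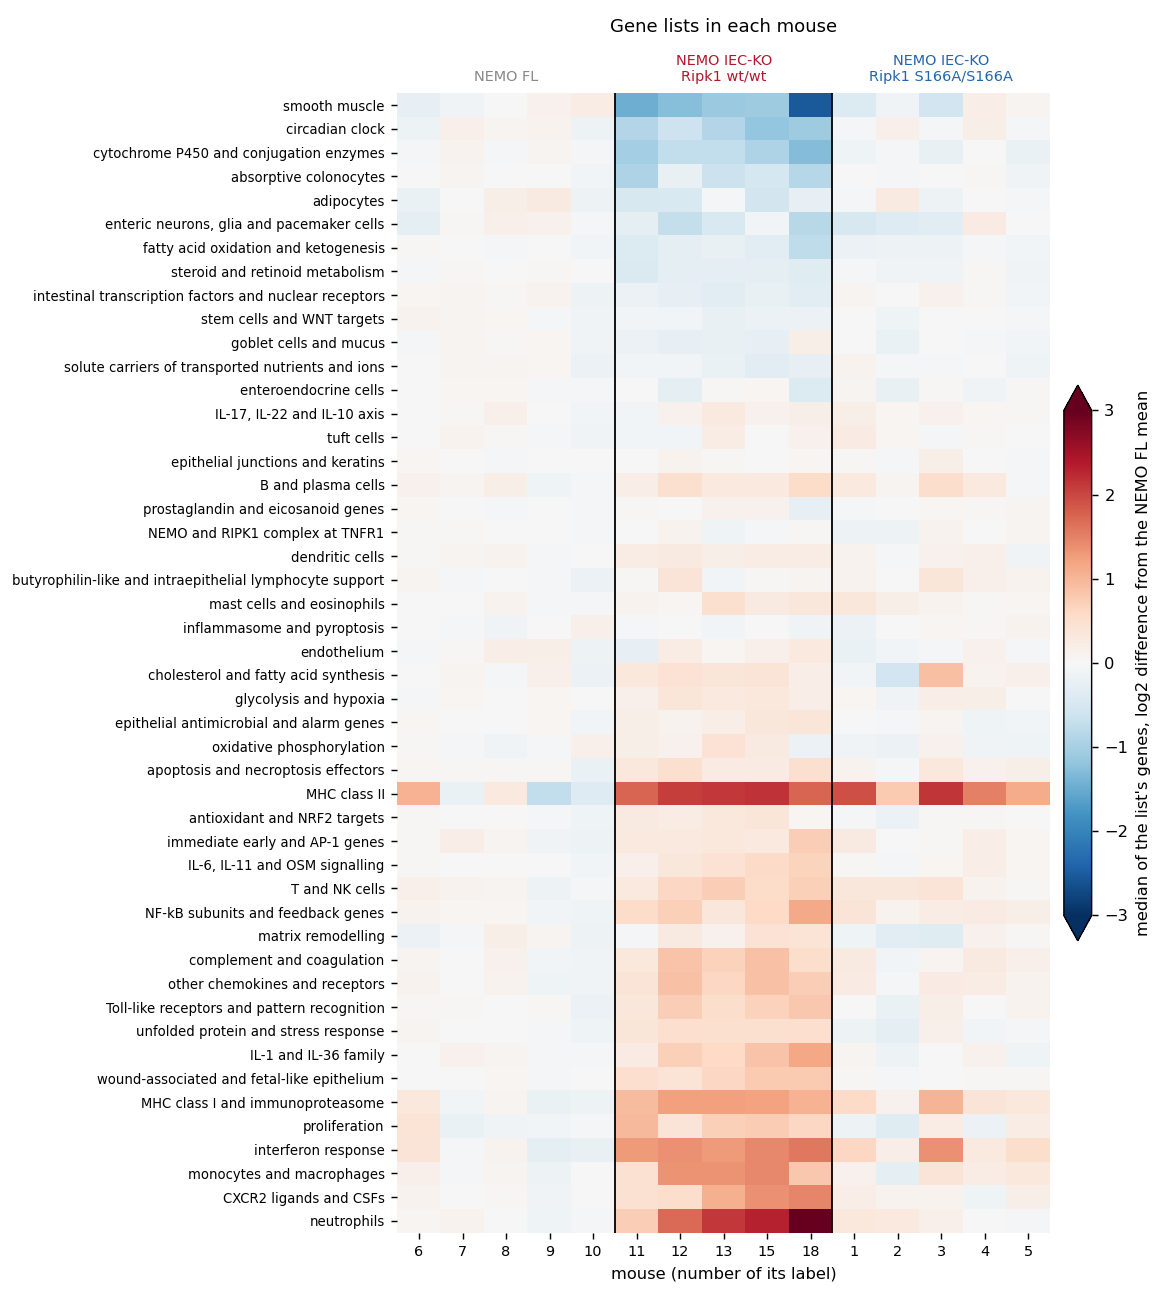
Each cell gives, for 1 gene list (rows) in 1 mouse (columns, grouped by genotype), the median over the list's genes of the log2 difference from the NEMO FL mean, on a scale from −3 (blue) to 3 (red). The wt/wt columns stand apart from both other groups in the outer rows, and S166A/S166A mouse 3 has interferon and MHC class I values (1.37 and 1.03) like those of wt/wt mice but a low neutrophil value (0.15).

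The S166A/S166A mice were not alike in every gene list. The median of the interferon list, as a difference from the NEMO FL mean, was 0.62, 0.20, 1.37, 0.28 and 0.54 in S166A/S166A mice 1 to 5 and 1.29, 1.38, 1.27, 1.44 and 1.59 in the wt/wt mice, so mouse 3 lay inside the wt/wt range and the other 4 below it. For MHC class I the values were 0.57, 0.12, 1.03, 0.39 and 0.32 against 0.96 to 1.24, again with mouse 3 inside that range. MHC class II was above 0 in all 5 S166A/S166A mice (1.93, 0.79, 2.15, 1.5 and 1.12), at 1.75 to 2.18 in wt/wt mice and at −0.75 to 1.05 in NEMO FL mice. Mouse 3 did not stand apart in the neutrophil list. Of the 2192 probe sets that were lower in S166A/S166A mice, mouse 3 had the highest S166A/S166A value in 927 (42.3%), mouse 5 in 603, mouse 1 in 307, mouse 4 in 242 and mouse 2 in 113. Of the 2066 that were higher, mouse 3 had the lowest value in 664 (32.1%). The list of cholesterol and fatty acid synthesis ranged from −0.57 in mouse 2 to 0.91 in mouse 3, against 0.21 to 0.44 in wt/wt mice, and its median change was −0.22 with all mice and −0.35 without mouse 3.

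Some genes that passed had a wide range among the S166A/S166A mice. *Ido1* was at 8.25, 5.65, 9.62, 7.10 and 7.11 in these mice and at 11.13, 11.38, 11.58, 11.63 and 11.73 in wt/wt mice, with SDs of 1.48 and 0.23. *Clca4b*, a calcium-activated chloride channel regulator, was at 10.40, 8.33, 11.92, 7.89 and 11.06 against 12.41, 12.73, 12.53, 12.82 and 12.31 and a NEMO FL mean of 7.57. *Pla2g2a* was at 8.31, 6.75, 9.85, 6.89 and 8.23 against 10.88, 11.76, 11.73, 11.64 and 11.68, and *Plet1*, a surface protein of epithelial progenitors, at 7.04, 5.80, 8.97, 6.43 and 6.38 against 10.93, 10.93, 9.96, 10.06 and 12.04. In each of the 4 genes mouse 3 was the highest S166A/S166A mouse and mouse 2 or 4 the lowest, and all 5 lay below the lowest wt/wt mouse. In the other direction, *Car3* was at 5.60, 7.21, 4.24, 7.70 and 6.46 in S166A/S166A mice, with mouse 3 lowest and inside the wt/wt range of 3.57 to 4.60. The widest ranges among wt/wt mice were those of *Ccl3*, *Cxcl2* and *Il1a* beside the Y-linked genes, and *Ccl3*, a chemokine of myeloid cells, ran from 5.83 to 10.87 there and from 4.26 to 4.77 in S166A/S166A mice. Over all probe sets the median SD was 0.216 in S166A/S166A and 0.226 in wt/wt mice. The wt/wt group had the larger SD in 53.1% of all probe sets. The share was 63.6% of those that were higher in S166A/S166A mice and 55.4%, close to that of all, of those that were lower. Only the wt/wt group held mice of both sexes, and the part of sex in these spreads was not tested.

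Calls near the threshold were less firm than the rest. This was checked for 197 genes named here as passing the test, *Hp* and *C2* not included. Of the 197, 29 lost the call without at least 1 of the 10 mice, and 17 lost it without 5 or more of them taken singly. These 17 were *Acly*, *Arntl*, *Axin2*, *Bank1*, *Bphl*, *Casp8*, *Ccl28*, *Cdca7*, *Dhx58*, *Eif2s3y*, *Gsdmd*, *H2-DMa*, *Isg15*, *Mcl1*, *Pax5*, *Tnfsf10* and *Xaf1*. In male mice 27 of the 197 did not pass, *Bcl2l11*, *Cyld*, *Cd44*, *Aqp4*, *Hspa5*, *Egr1*, *Car3*, *Tef* and the Y-linked genes among them, with sex as a term 33 did not, and 41 did not without S166A/S166A mice 1 and 2. With mouse 10 counted as wt/wt, after its genotype label, 103 of the 197 did not pass, *Ido1* (0.16), *Lcn2* (0.081), *Tnf* (0.085) and *Ripk3* (0.088, adjusted p) among them, so these calls rest on its place with NEMO FL.

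**Figure D5:**
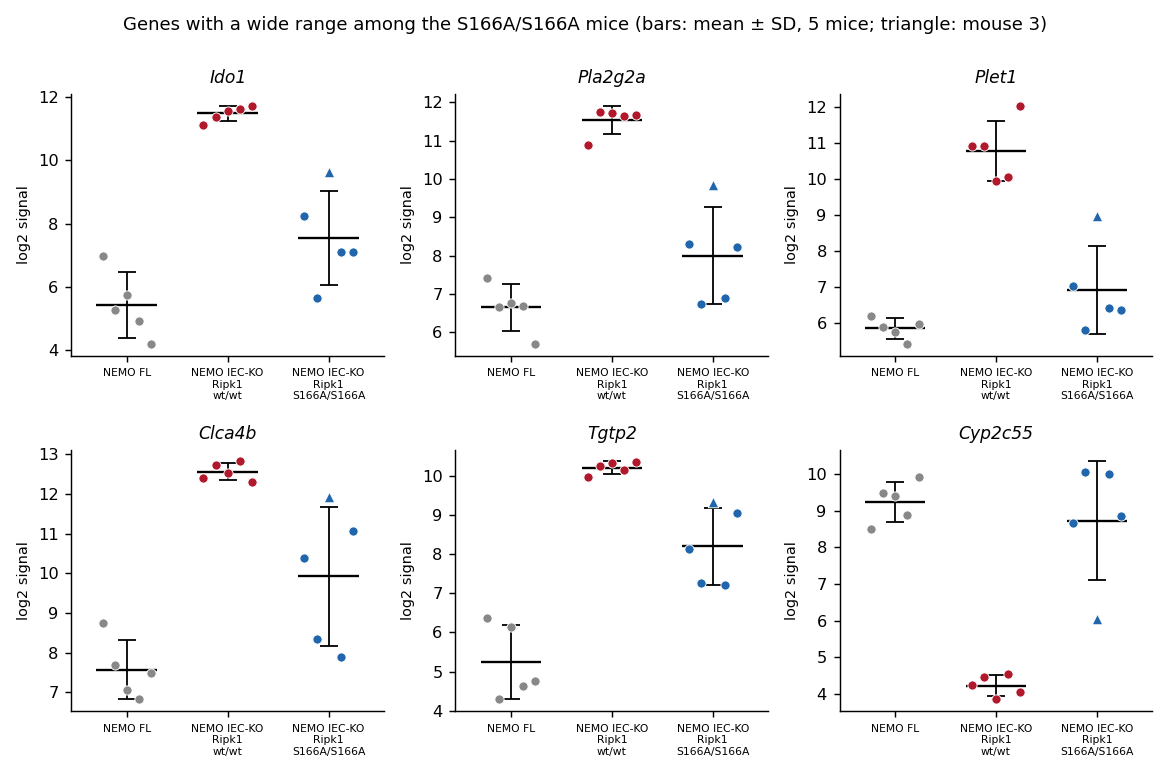
The log2 signal of 6 genes is plotted for each mouse of the 3 genotypes (5 mice each), with the mean and SD as bars and S166A/S166A mouse 3 as a triangle. In *Ido1*, *Pla2g2a*, *Plet1*, *Clca4b* and *Tgtp2* mouse 3 is the S166A/S166A mouse nearest to the wt/wt mice, and in *Cyp2c55* it is the lowest of its group, at 6.06.

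Genes that lie beside the edited and the deleted gene were looked up, and whether linked alleles have a part in their values was not tested. Of the 5 measured genes on each side of *Ripk1* on chromosome 13, *Bphl* (0.56, adjusted p = 0.034), *Psmg4* (−0.74, 0.0023) and *Slc22a23* (1.18, 1.6e-05) passed the test, 3 of 10 where 19.8% of all named probe sets did. *Bphl* did not pass in male mice (adjusted p = 0.36) or without S166A/S166A mouse 4 (0.080). Its means were 6.13 in S166A/S166A, 5.57 in wt/wt and 6.35 in NEMO FL mice. Those of *Psmg4* were 4.22, 4.96 and 4.25. *Slc22a23*, an organic ion transporter, was at 9.91, 9.83, 9.71, 9.70 and 9.53 in S166A/S166A and 8.60, 8.69, 8.34, 8.44 and 8.71 in wt/wt mice, with a NEMO FL mean of 9.72. Beside *Ikbkg* on the X chromosome, where both groups carry the same deletion, 1 of 10 passed, *Lage3* (−0.59).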

How the data were processed

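Total RNA of whole colon (100 ng per mouse) was hybridised to Clariom S mouse arrays, which measure 1 probe set for most genes, 1 array per mouse. The deposited values are log2 signals per probe set made by the authors. The submitters' processing notes name Affymetrix Expression Console and Transcriptome Analysis Console, which the study's methods mention for array quality control. The log base was read from the range of 1.69 to 13.6, and the normalisation is not given in the sources used here. Groups followed the titles, which places mouse 10 with NEMO FL against its genotype label. The 5 S166A/S166A and 5 wt/wt arrays were compared with limma 3.58.1 (R 4.3.3; lmFit and eBayes, 2 groups, no covariate, no filter on dim probe sets), with Benjamini-Hochberg adjustment over 22142 probe sets and a threshold of 0.05. The fit was tested on simulated data with known changes. P-values set the difference between groups against the spread of mice within groups, moderated over all probe sets. Sex and litter were not in the main fit, so that spread includes them, and precision is limited by how many arrays there are. Of the probe sets, 19527 carry 1 gene symbol in the platform annotation and 2615 carry none or several. For 33 symbols with 2 probe sets the brighter one was used, by its mean over the 10 arrays. Probe sets of near-identical genes may respond to each other's RNA, which was not tested. Of 1297 genes in 54 lists 1170 were measured, 9 of them through an older symbol.

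The members and lists were chosen with earlier results of these data known. Named genes were those the study names, the 12 largest changes in each direction among calls with groups that do not overlap, the 8 smallest adjusted p-values in each direction, the called members with the 4 largest changes of each list, the genes of the sex check, and the 6 called genes with the largest SD in each group; other genes are named as exceptions or comparisons after their values were seen, and not every gene the rule gave is described. Sex was read from Y-linked genes. Promoter windows were matched by symbol for 15683 genes. Alternatives changed the fit, scaling, filters, sex, the label of mouse 10 and the mice included.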

Additional observations from a re-analysis of the deposited data

Results flagged for a closer look

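Among the named genes and lists, 1 mouse stood far from the others of its group in 43 of 582 sets of 5 values (7.39%). The cut-off would flag about 1 in 20 sets of independent normal values. These sets overlap, and some genes were named for their wide spread, so the 2 shares cannot be compared. The number after each name is the gap between that mouse and the nearest other mouse, divided by the range of the group, and every gap is above 0.71. The highest value of the S166A/S166A mice was that of mouse 1 in *Il11* (0.882), *Mpo* (0.787) and *Socs3* (0.72). Mouse 1 lay apart as the lowest S166A/S166A mouse in *Atf6* (0.767). S166A/S166A mouse 2 was the lowest of its group in *Folr2* (0.815). The highest value of the S166A/S166A mice was that of mouse 3 in *Bak1* (0.875), *Chil3* (0.742), *H2-T22* (0.717), *Il6* (0.939), *Rsad2* (0.711), *Slco2a1* (0.783) and the median of the list of oxidative phosphorylation (0.745). Mouse 4 lay apart as the highest S166A/S166A mouse in *Slc15a1* (0.786). S166A/S166A mouse 4 was the lowest of its group in *Ctla4* (0.768) and *Cxcl1* (0.933). The highest value of the S166A/S166A mice was that of mouse 5 in *Aldh1a3* (0.827). Mouse 5 lay apart as the lowest S166A/S166A mouse in *Icos* (0.829) and *Vdr* (0.921). Wt/wt mouse 11 was the lowest of its group in *Cldn4* (0.748), *Derl3* (0.766), *Jchain* (0.733), *Pla2g2a* (0.864) and the median of the list of unfolded protein and stress response (0.795). The highest value of the wt/wt mice was that of mouse 12 in *Ifit2* (0.725). Mouse 12 lay apart as the lowest wt/wt mouse in *Guca2a* (0.794) and *Guca2b* (0.814). Wt/wt mouse 13 was the lowest of its group in *Clock* (0.834) and *Ripk3* (0.72). The highest value of the wt/wt mice was that of mouse 18 in *Cd44* (0.951), *Csf3r* (0.789), *Egr1* (0.799), *Fcgbp* (0.747), *Nfkbia* (0.71), the median of the list of immediate early and AP-1 genes (0.94) and the median of the list of goblet cells and mucus (0.858). Mouse 18 lay apart as the lowest wt/wt mouse in *Aldh1a1* (0.771), *Cald1* (0.713), *Des* (0.889), *Mep1a* (0.927), *Nox1* (0.776), *Postn* (0.817), *Tac1* (0.76) and the median of the list of smooth muscle (0.731). No explanation of these single mice was tested.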

How the results depend on the processing

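The counts of 2066 higher and 2192 lower probe sets stayed within 1.5 times under 20 of 23 alternatives each. They were 663 and 771 with mouse 10 counted as wt/wt, 1330 and 1108 without S166A/S166A mice 1 and 2, and 1241 and 1437 where a fold over 1.5 and an unadjusted p under 0.05 made the call. Leaving out 1 mouse gave 1559 to 2068 higher and 1554 to 2234 lower. Centring the arrays gave 1823 and 2470, a sex term 1899 and 2131, and 1 called probe set changed sign among the calls lost with the sex term. *Eif2s3y*, a Y-linked gene, had a change of −0.29 in male mice and −0.29 with the sex term. Because every S166A/S166A mouse was male, these settings give the same change for each gene and are not separate checks. They differ only in the residual spread and so in the p-values. List medians moved beyond the spread of their mice in 35 of 1104 recalculations. The cause of these shifts was not tested, apart from the smaller number of mice where mice were left out. No paired analysis was possible because no number is shared between the groups and the labels do not say which mice came from 1 litter, although the study's methods state that littermates were used, so the part of litter was not tested.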
